A study of Mus musculus with 15 samples.

Results

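The 10 genes described here, Egln1, Egln2, Egln3, Hif1a, Hif3a, Epas1, Bnip3, Bnip3l, Ankrd37 and P4ha1, sense oxygen or respond to its loss, and they were read in mouse brain by their gene symbols among the 30386 genes of the count table. The brains came from 3 groups with 5 libraries each. Het_B12 were Tbx1+/- mice, which carry 1 working copy of the transcription factor gene Tbx1, injected intraperitoneally with vitamin B12 at 20 mg/kg in PBS. Het_PBS were Tbx1+/- mice given PBS alone, and WT_PBS were wild-type mice given PBS. Injections were given 2 times per week for 4 weeks to mice that were 4 weeks old at the start. The sources used here do not give strain or sex, and no wild types given vitamin B12 are among the samples, so an effect of the vitamin can be read in Tbx1+/- mice alone. The tissue is called a brain hemisphere in some labels and the whole brain in others, and all cell types of it were mixed. In such bulk RNA, fewer cells of a type and less RNA per cell cannot be told apart.

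Libraries held between 1683258 and 2746122 counted reads, so 3 reads stood for 1.09 to 1.78 counts per 1000000 reads (CPM) before scaling. The levels below are CPM scaled further by TMM factors of 0.932 to 1.08. Tbx1 itself had 1 read in Het_B12, 3 in Het_PBS and 3 in WT_PBS, too few to check the genotypes. Every one of 16 neuronal marker genes had reads in each group, and their summed level was 11024 to 11996 CPM in Het_B12, 10778 to 12451 CPM in Het_PBS and 10950 to 12723 CPM in WT_PBS. In the test described below, 2 of the 16 were called higher and 0 lower in Het_B12 than in Het_PBS, where 3.47% and 3.79% of all genes were. Against WT_PBS, 3 of the 16 were called higher and 0 lower in Het_B12, where 3.22% and 4.11% of all genes were. The labels give number 210 to both Het_B12 1 and Het_PBS 5. Their counts were compared by chi-square per degree of freedom, which came to 10.28 for this pair and to at least 3.03 for the 30 pairs of libraries from 1 group. This pair crosses groups and no other such pair was compared, so the value cannot tell whether both libraries came from the same mouse. Both were kept, and values with both left out are given where that ended a call. Within WT_PBS, WT_PBS 3 had the lowest summed marker levels for astrocytes (11643 CPM), microglia (569 CPM) and oligodendrocytes (4414 CPM). WT_PBS 2 had the highest for endothelial cells (517 CPM) and oligodendrocytes (9212 CPM). Mitochondrially encoded genes took 9.58% of reads in WT_PBS 2 and 6.32% to 7.06% in the other wild types.

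Cells sense oxygen through prolyl hydroxylases, which use it to modify the alpha subunits of hypoxia-inducible factors (HIF). A hydroxylated subunit is bound by the von Hippel-Lindau protein and degraded. When oxygen falls the subunits persist, pair with ARNT and bind DNA at a short core motif next to target genes, among them genes for glycolysis, red cell and vessel growth, mitophagy and collagen modification. Egln1, Egln2 and Egln3 encode the hydroxylases PHD2, PHD1 and PHD3. Hif1a, Epas1 (HIF-2 alpha) and Hif3a encode alpha subunits. Bnip3 and Bnip3l (NIX) encode receptors on the outer mitochondrial membrane that mark mitochondria for autophagy. P4ha1 encodes a catalytic subunit of the enzyme that hydroxylates collagen, Ankrd37 an ankyrin-repeat protein, and both are known HIF targets, as are Egln3 and Bnip3. HIF alpha protein is regulated mainly by its degradation, which mRNA counts do not measure.

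The HIF core motif was searched in the promoters because it is what a shared response of these genes would be read through. RefSeq windows on GRCm38.p6, from 250 bases before to 50 bases after a start, were matched for 8 of the 10 genes, with 2 windows for Egln2. Epas1 and Bnip3l were not matched. The letters searched were ACGTG and GCGTG, on both strands, and a palindromic CACGTG counts on each strand. All 8 genes held at least 1 match. Among all 32851 windows 19.6% held ACGTG, 32.4% held GCGTG and 43.8% held either, and among the 9690 windows with a G+C content of 60% or more 69.2% held either. Printed below are the 170 bases before the start of 1 hydroxylase gene with 1 match of each motif, Egln1, of the other main hydroxylase gene, Egln2, and of the target genes Bnip3 and P4ha1, each in its gene's direction, with matches that lie wholly in the stretch in capitals (CACGT and CACGC are matches on the other strand). Egln1 lies at chr8:124949255-124949424 on the minus strand, Egln2 at chr7:27166803-27166972 on the minus strand, Bnip3 at chr7:138909507-138909676 on the minus strand, and P4ha1 at chr10:59323126-59323295 on the plus strand.
Egln1: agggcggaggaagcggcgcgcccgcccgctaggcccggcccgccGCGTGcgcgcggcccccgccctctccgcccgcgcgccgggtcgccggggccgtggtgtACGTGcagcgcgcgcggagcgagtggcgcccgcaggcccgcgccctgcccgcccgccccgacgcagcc
Egln2: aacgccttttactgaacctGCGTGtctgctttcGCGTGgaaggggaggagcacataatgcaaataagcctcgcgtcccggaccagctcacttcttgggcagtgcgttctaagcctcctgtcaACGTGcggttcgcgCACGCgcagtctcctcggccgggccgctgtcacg
Bnip3: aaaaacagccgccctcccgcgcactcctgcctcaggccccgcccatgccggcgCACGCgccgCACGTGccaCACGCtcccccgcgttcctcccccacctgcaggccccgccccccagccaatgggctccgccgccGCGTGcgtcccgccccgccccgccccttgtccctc
P4ha1: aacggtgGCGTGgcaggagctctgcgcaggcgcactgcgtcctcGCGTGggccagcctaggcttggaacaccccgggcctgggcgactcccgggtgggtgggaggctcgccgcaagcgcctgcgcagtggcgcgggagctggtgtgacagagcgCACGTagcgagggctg
In Egln1 GCGTG starts at -126 and ACGTG at -68, counted from the RefSeq start. The GENCODE gene models used for coordinates below start farther upstream for Egln1 (124949324) and Bnip3 (138909519), inside the printed stretch, and the ACGTG of Egln1 lies within that model. In Egln2 a palindromic ACGTG match runs across the start and is left in lower case. Bnip3 held 2 matches to ACGTG, which are the strands of 1 palindrome, and 3 to GCGTG. A match is a run of letters and says nothing about binding in these brains.

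Of the 10 genes, 8 had enough reads to pass the filter on low counts and be tested. None of the 8 passed the test in any comparison. Egln1, the main cellular oxygen sensor, came closest: its mRNA averaged 52.7 ± 4.94 CPM in Het_B12 and 55.3 ± 8.66 CPM in Het_PBS, against 39.0 ± 7.30 CPM in WT_PBS (SD, n = 5 each). Calls were made in edgeR's quasi-likelihood test, fitted to all 15 libraries, where p after Benjamini-Hochberg adjustment over 11718 genes was under 0.05. For Het_PBS against WT_PBS 0 of 8 were called, where 0% of all genes were called, and 1 of 8 had an unadjusted p under 0.05, where 7.5% of all genes did. For Het_B12 against Het_PBS 0 of 8 were called, where 7.26% of all genes were called (3.47% higher and 3.79% lower), and 0 of 8 had an unadjusted p under 0.05, where 21.7% did. For Het_B12 against WT_PBS 0 of 8 were called, where 7.33% of all genes were called (3.22% higher and 4.11% lower), and 1 of 8 had an unadjusted p under 0.05, where 21.6% did. In the F test of any difference among the 3 groups 0 of 8 were called, where 7.75% of all genes were called. The median log2 fold change of the 8 genes was 0.11 for Het_PBS against WT_PBS, -0.02 for Het_B12 against Het_PBS and -0.05 for Het_B12 against WT_PBS, while over all genes tested the median was -0.01 for Het_PBS against WT_PBS and 0.01 for each of the other 2 comparisons. The 3 comparisons share groups and are not independent of each other. For 0 of the 8 genes were the libraries of 2 groups fully apart. Of all genes, 0.393% were fully apart and higher and 0.444% fully apart and lower in Het_PBS than in WT_PBS, 3.75% and 4.07% in Het_B12 than in Het_PBS, and 2.44% and 2.94% in Het_B12 than in WT_PBS. Orders of libraries short of that, given for single genes below, were not counted over all genes.

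**Figure D1:**
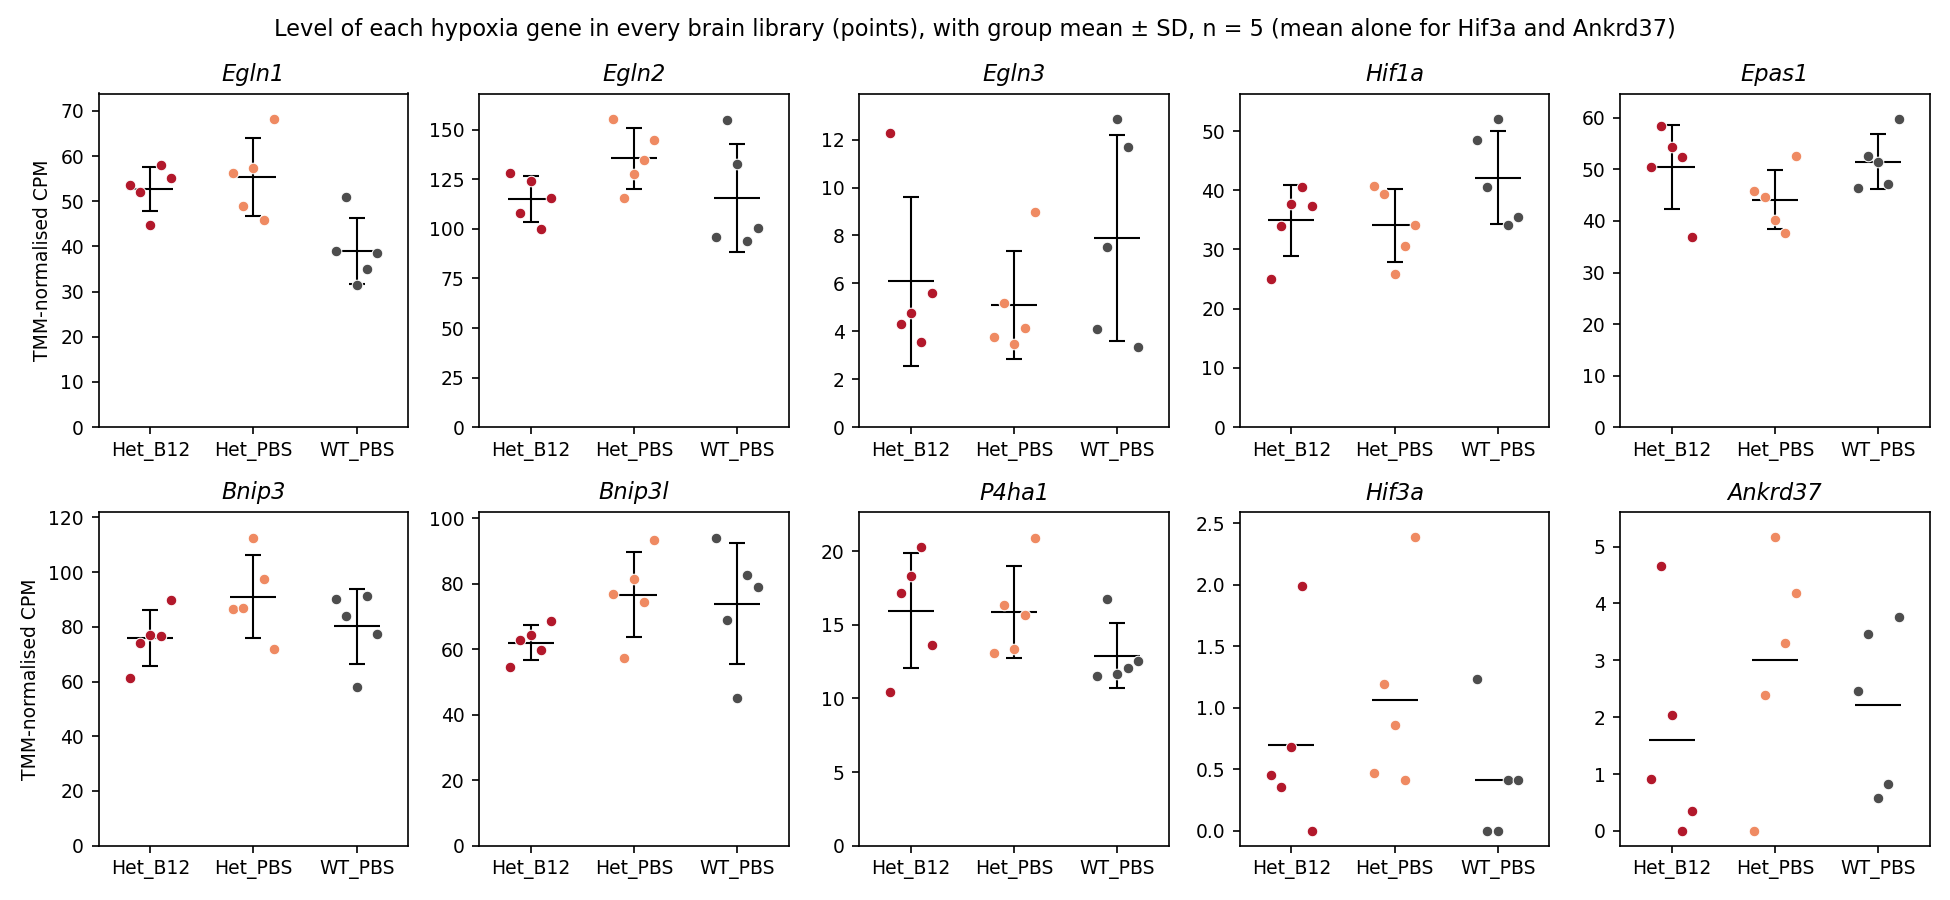
Level of each of the 10 genes in TMM-normalised CPM (vertical axes, starting at 0 for the 8 genes tested) in every library of Het_B12, Het_PBS and WT_PBS (points). Lines are group means and bars ± 1 SD (n = 5), with the mean alone for Hif3a and Ankrd37. In Egln1 4 of 5 WT_PBS points lie below every Tbx1+/- point, an order not counted over all genes, and in every panel the groups overlap.

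**Figure D2:**
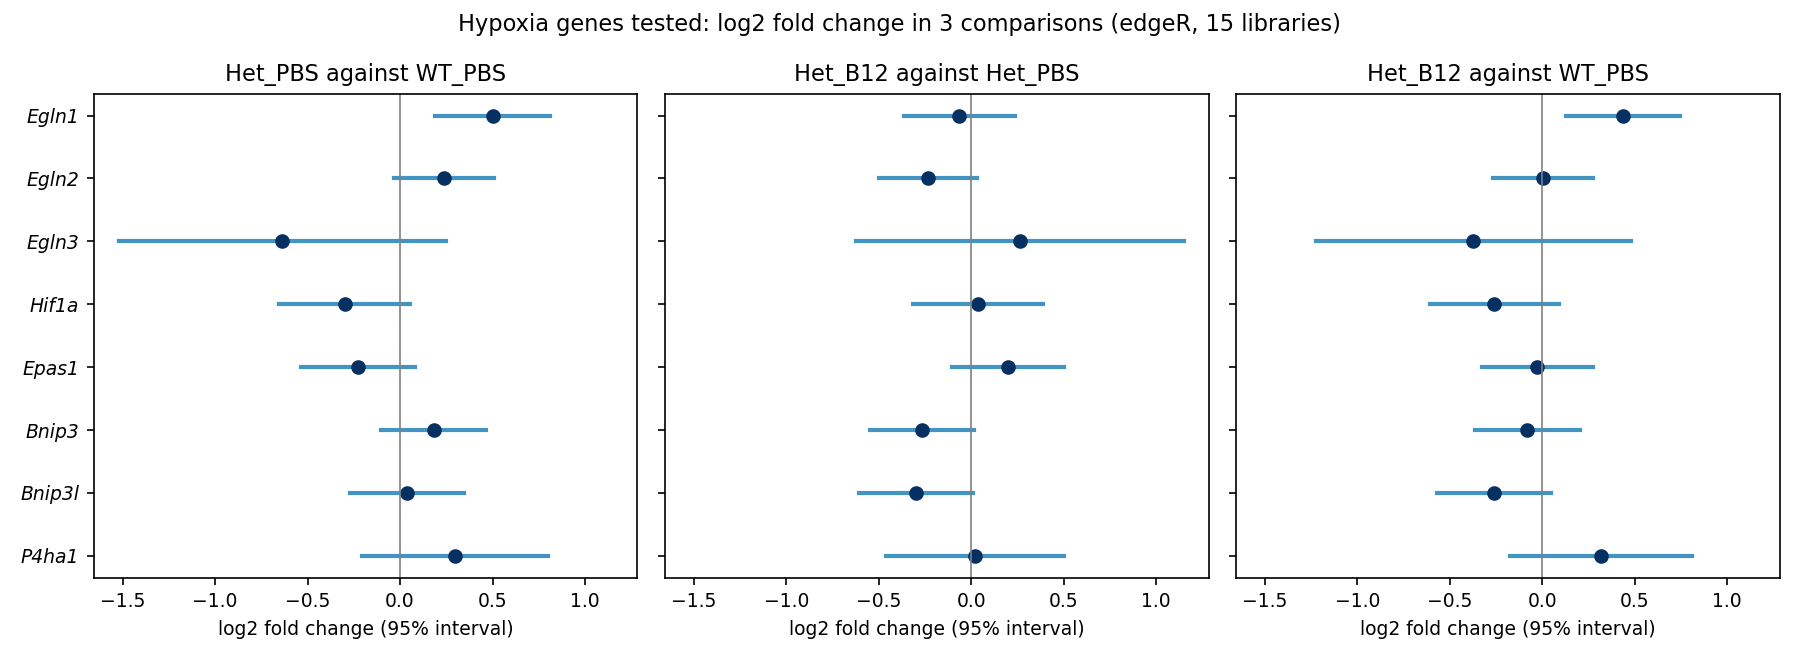
Log2 fold change of the 8 genes tested in each comparison (points) with its 95% interval (lines), from the edgeR fit to 15 libraries, before any adjustment for the number of genes. The Egln1 interval lies above 0 in both comparisons with WT_PBS, and the intervals of the other 7 genes include 0 in each of the 3 comparisons.

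Egln1 (chromosome 8, 124908587 to 124949324, minus strand, GRCm38) encodes PHD2, the hydroxylase that does most of the work of holding HIF alpha low in normal oxygen. Its levels were 53.6, 52.0, 44.8, 58.0 and 55.1 CPM in Het_B12 1 to 5, and 56.2, 49.0, 57.4, 45.8 and 68.2 CPM in Het_PBS 1 to 5. In WT_PBS 1 to 5 they were 39.0, 50.9, 31.6, 35.0 and 38.4 CPM. The 10 Tbx1+/- libraries thus ran from 44.8 to 68.2 CPM, 4 of 5 WT_PBS libraries lay below all of them, and WT_PBS 2 lay among them. How many of all genes show such an order was not counted, so it has no background to be read against. The log2 fold change was 0.50 ± 0.15 (SE) for Het_PBS against WT_PBS, with an unadjusted p of 0.00251 and an edgeR adjusted p of 0.515. The smallest adjusted p of any gene in that comparison was 0.125. For Het_B12 against WT_PBS it was 0.44 ± 0.15, with an unadjusted p of 0.00702 and an edgeR adjusted p of 0.0755, and the F test over the 3 groups gave an adjusted p of 0.0603. Between Het_B12 and Het_PBS the log2 difference was -0.06 ± 0.15 with a 95% interval of -0.37 to 0.24 and an edgeR adjusted p of 0.858. The value for Het_B12 against WT_PBS stood near the threshold, and 3 of 29 alternative settings called it: a filter on a mean count of at least 50 (adjusted p of 0.0414), reads thinned to the smallest library (0.0390), and WT_PBS 2 left out (log2 fold change 0.54, 0.0321). Without WT_PBS 3, which had the lowest Egln1 level, the log2 fold change was 0.38 with an edgeR adjusted p of 0.123. For Het_PBS against WT_PBS 0 of 29 settings called it, with adjusted p-values of 0.103 to 0.799.

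**Figure D3:**
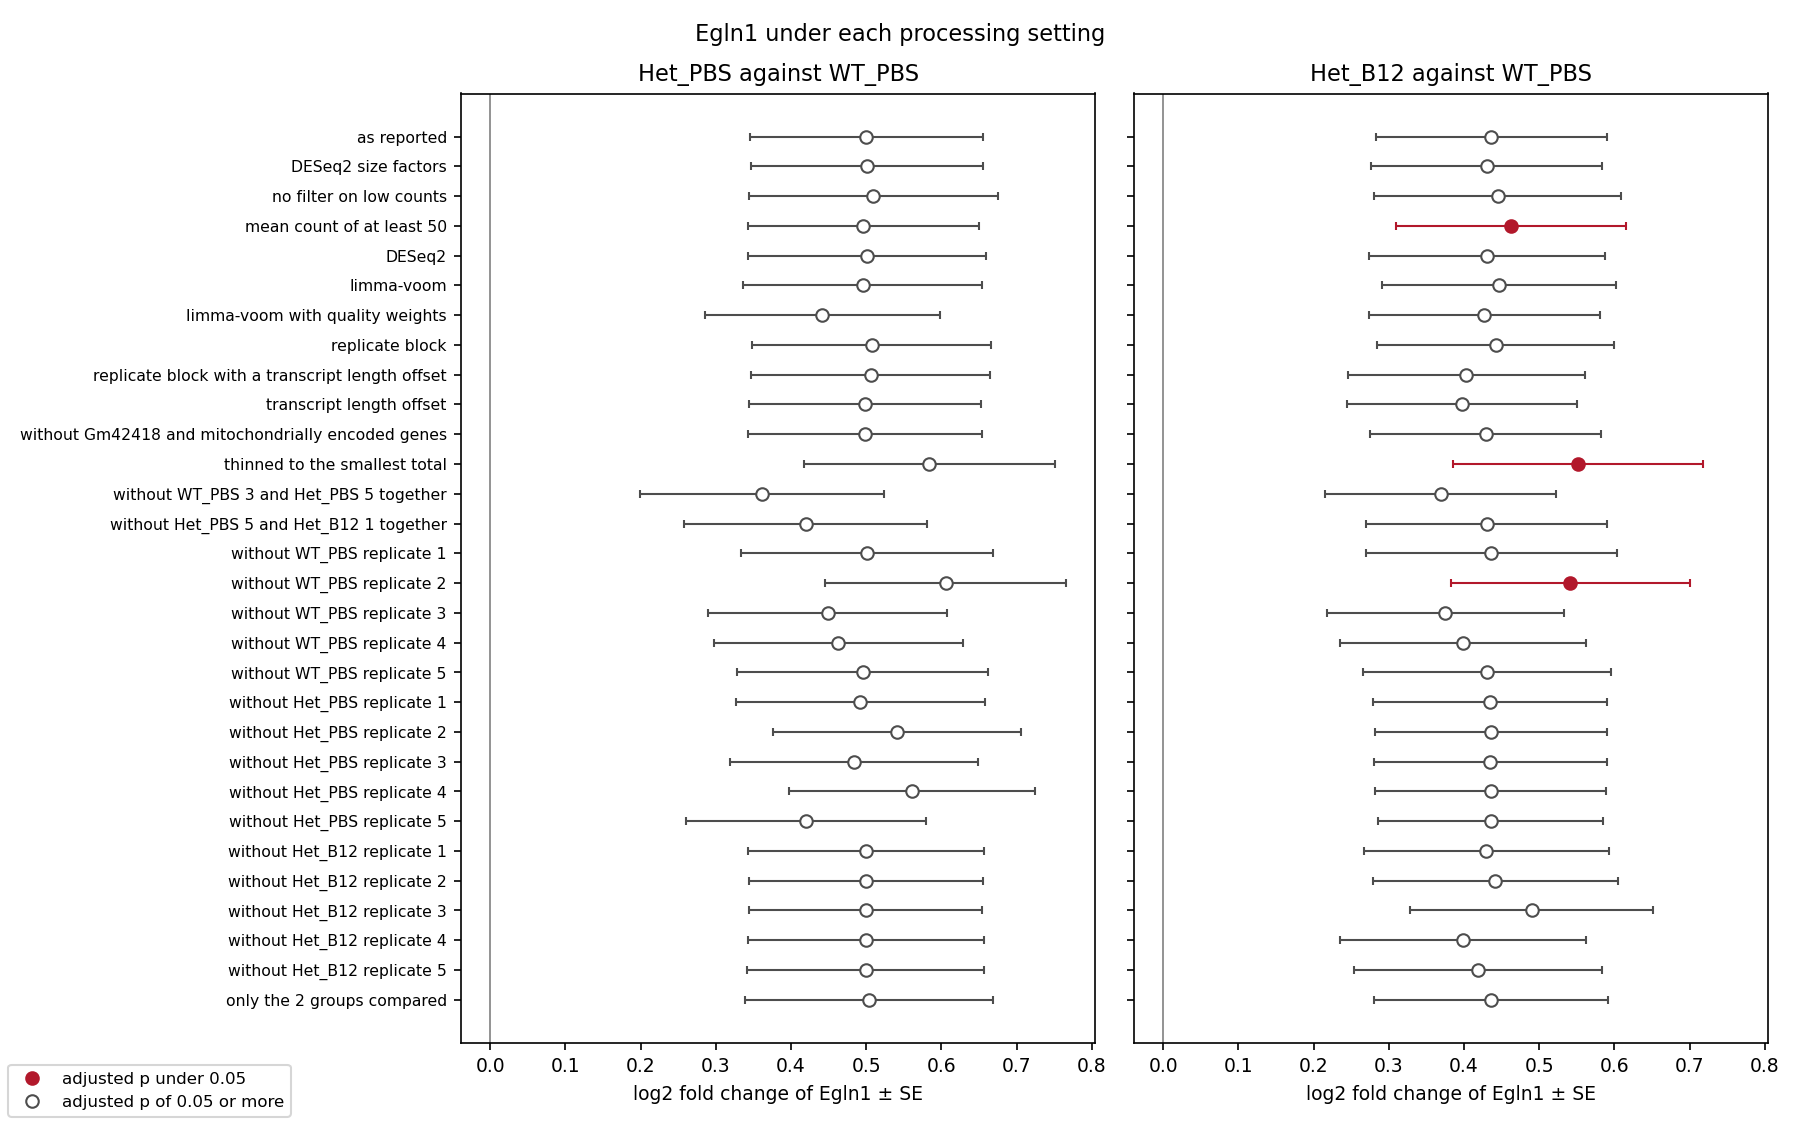
Log2 fold change of Egln1 ± SE (horizontal axes) under each processing setting (rows), for Het_PBS against WT_PBS (left) and Het_B12 against WT_PBS (right), with filled points where the adjusted p was under 0.05. Every value lies above 0, from 0.36 to 0.61 on the left and from 0.37 to 0.55 on the right, and 3 points on the right are filled.

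Egln2 (chromosome 7, 27158658 to 27166802, minus strand) encodes PHD1, a hydroxylase whose own expression does not depend on oxygen in most cells. It had 128, 108, 124, 99.7 and 115 CPM in Het_B12, and 155, 115, 128, 135 and 145 CPM in Het_PBS. WT_PBS had 95.7, 155, 133, 93.8 and 100.3 CPM. The Het_PBS libraries all stood at 115 CPM or above, while WT_PBS spread from 93.8 to 155 CPM and overlapped both other groups. The log2 fold change was -0.23 ± 0.13 for Het_B12 against Het_PBS (95% interval -0.50 to 0.03, edgeR adjusted p of 0.305) and 0.24 ± 0.13 for Het_PBS against WT_PBS (-0.03 to 0.51, 0.708). Egln3 (chromosome 12, 54178981 to 54203860, minus strand), the hydroxylase gene most strongly induced by HIF in many cells, was low, with 8 to 28 reads per library. Its mean (SD, n = 5 each) was 6.10 ± 3.53 CPM in Het_B12, 5.09 ± 2.26 CPM in Het_PBS and 7.90 ± 4.30 CPM in WT_PBS, and single libraries reached 12.3 CPM in Het_B12, 8.97 CPM in Het_PBS and 12.9 CPM in WT_PBS. Its 95% interval on the log2 scale was the widest of the 8 genes in each comparison, -1.52 to 0.25 for Het_PBS against WT_PBS and -0.62 to 1.15 for Het_B12 against Het_PBS (edgeR adjusted p of 0.782 and 0.788).

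As a share of the reads of the 3 hydroxylase genes, Egln1 made up 30.5% ± 3.95 in Het_B12, 28.2% ± 2.63 in Het_PBS and 24.4% ± 4.02 in WT_PBS (SD, n = 5 each). Egln2 made up 66.1% ± 3.45 in Het_B12, 69.2% ± 3.24 in Het_PBS and 70.8% ± 3.17 in WT_PBS, and Egln3 the small rest. The ranges of the Egln1 share overlapped, with 25.8% to 36.0% in Het_B12, 24.8% to 30.7% in Het_PBS and 17.8% to 28.1% in WT_PBS, and no test was run on it. These are shares of 3′ reads, of which each transcript gives about 1 whatever its length.

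Among the alpha subunits, Hif1a (chromosome 12, 73901375 to 73947530, plus strand), the subunit present in nearly all cells, had 25.0, 34.0, 37.7, 40.5 and 37.3 CPM in Het_B12, and 40.7, 39.4, 25.9, 30.6 and 34.1 CPM in Het_PBS. WT_PBS had 48.5, 40.5, 52.0, 34.2 and 35.5 CPM. The highest 2 libraries, WT_PBS 3 and WT_PBS 1, were wild types, and the other 3 wild types lay within the range of the Tbx1+/- libraries. The log2 fold change was -0.30 ± 0.18 for Het_PBS against WT_PBS (95% interval -0.65 to 0.06, edgeR adjusted p of 0.715) and -0.26 ± 0.17 for Het_B12 against WT_PBS (-0.61 to 0.09, 0.399). An antisense gene in the same stretch, Gm15283, had 5 reads in Het_B12, 4 in Het_PBS and 22 in WT_PBS, and since the strand setting of the count is unstated, reads of both cannot be told apart with certainty. A protein-coding gene on the same strand whose exons overlap those of Hif1a, Gm49321, had 0 reads. How reads shared by Gm49321 and Hif1a were counted was not examined.

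Epas1 (chromosome 17, 86753700 to 86833410, plus strand), a subunit known for its high expression in endothelial cells, had 50.5, 58.4, 54.3, 52.4 and 37.0 CPM in Het_B12, and 45.9, 44.6, 40.1, 37.6 and 52.6 CPM in Het_PBS. WT_PBS had 46.4, 52.6, 51.4, 47.1 and 59.8 CPM. The lowest library was Het_B12 5 at 37.0 CPM and the highest WT_PBS 5 at 59.8 CPM. Its log2 fold change was 0.20 ± 0.15 for Het_B12 against Het_PBS (95% interval -0.10 to 0.50, edgeR adjusted p of 0.481) and -0.23 ± 0.15 for Het_PBS against WT_PBS (-0.53 to 0.08, 0.775). The summed level of 20 endothelial markers was 525 to 653 CPM in Het_B12, 388 to 525 CPM in Het_PBS and 410 to 517 CPM in WT_PBS, with none of the 20 at 0 in a whole group. Of the 17 of them that were tested, 6 were called higher and 0 lower in Het_B12 than in Het_PBS, where 3.47% and 3.79% of all genes were. Against WT_PBS, 6 were called higher and 1 lower in Het_B12, where 3.22% and 4.11% of all genes were. The part of these markers in the Epas1 values was not tested. Epas1 made up 59.1% ± 6.54 of the reads of Hif1a and Epas1 in Het_B12, 56.5% ± 3.93 in Het_PBS and 55.2% ± 5.82 in WT_PBS (SD, n = 5 each).

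Hif3a (chromosome 7, 17031507 to 17062427, minus strand), whose products include inhibitors of the other subunits, had 25 reads over the 15 libraries, from 0 to 5 in each, and the filter on low counts removed it. With no filter its log2 fold change was 1.15 ± 1.16 for Het_PBS against WT_PBS, -0.55 ± 1.10 for Het_B12 against Het_PBS and 0.59 ± 1.17 for Het_B12 against WT_PBS (edgeR adjusted p of 0.790, 0.860 and 0.847). At this depth no difference between groups was detectable.

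The mitophagy receptors Bnip3 and Bnip3l had lower means in Het_B12 than in Het_PBS, by less than the test could tell apart. Bnip3 (chromosome 7, 138890836 to 138909519, minus strand) had 61.4, 74.2, 77.1, 76.7 and 90.0 CPM in Het_B12, and 86.6, 86.8, 113, 97.5 and 71.7 CPM in Het_PBS. WT_PBS had 90.3, 83.9, 57.8, 91.3 and 77.3 CPM. In Het_PBS 4 of 5 libraries stood at 86.6 CPM or above and in Het_B12 1 of 5 did, with Het_PBS 5 inside the Het_B12 range. The log2 fold change was -0.26 ± 0.14 for Het_B12 against Het_PBS (95% interval -0.55 to 0.02, edgeR adjusted p of 0.267) and 0.18 ± 0.14 for Het_PBS against WT_PBS (-0.10 to 0.47, 0.817).

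Bnip3l (chromosome 14, 66985239 to 67008877, minus strand) encodes the receptor that clears mitochondria from maturing red cells and acts in other tissues too. It had 54.6, 62.7, 64.2, 59.6 and 68.7 CPM in Het_B12, and 76.7, 57.3, 81.5, 74.3 and 93.3 CPM in Het_PBS. WT_PBS had 94.0, 68.8, 45.0, 82.6 and 79.0 CPM. The Het_B12 libraries lay close together, below 4 of 5 Het_PBS libraries and below 4 of 5 WT_PBS libraries, while WT_PBS 3 was the lowest of all 15. The log2 fold change was -0.30 ± 0.15 for Het_B12 against Het_PBS (95% interval -0.61 to 0.01, edgeR adjusted p of 0.252) and -0.26 ± 0.15 for Het_B12 against WT_PBS (-0.57 to 0.05, 0.330). With WT_PBS 3 and Het_PBS 5 both left out, Bnip3l was called lower in Het_B12 than in WT_PBS, at a log2 fold change of -0.40 and an edgeR adjusted p of 0.0481. The summed level of 7 red cell markers was 499 to 980 CPM in Het_B12, 778 to 5000 CPM in Het_PBS and 491 to 1298 CPM in WT_PBS, with the highest sum in Het_PBS 3, and 1 of the 7 was at 0 throughout Het_B12. Of the 5 that were tested, 5 were called lower in Het_B12 than in Het_PBS, where 3.79% of all genes were. Their median log2 fold change was -1.71. The part of red cell RNA in the Bnip3l values was not tested. Bnip3l took 45.1% ± 1.55 of the reads of the 2 receptor genes in Het_B12, 45.7% ± 6.58 in Het_PBS and 47.6% ± 3.22 in WT_PBS (SD, n = 5 each), with 56.5% in Het_PBS 5 as the highest.

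Of the other targets, P4ha1 (chromosome 10, 59323296 to 59373304, plus strand) had 10.5, 17.2, 18.3, 20.3 and 13.6 CPM in Het_B12, and 13.1, 16.3, 13.4, 15.7 and 20.9 CPM in Het_PBS. WT_PBS had 11.5, 16.8, 11.7, 12.1 and 12.5 CPM. In WT_PBS 4 of 5 libraries lay between 11.5 and 12.5 CPM, and every Het_PBS library lay above those 4. The log2 fold change was 0.30 ± 0.25 for Het_PBS against WT_PBS (95% interval -0.21 to 0.80, edgeR adjusted p of 0.843) and 0.32 ± 0.24 for Het_B12 against WT_PBS (-0.18 to 0.81, 0.481). Ankrd37 (chromosome 8, 45996902 to 46005707, minus strand) had 79 reads in all, from 0 to 13 in a library, and the filter removed it too. With no filter its log2 fold change was 0.43 ± 0.68 for Het_PBS against WT_PBS, -0.88 ± 0.69 for Het_B12 against Het_PBS and -0.45 ± 0.70 for Het_B12 against WT_PBS (edgeR adjusted p of 0.913, 0.551 and 0.790). It overlaps Ufsp2 and Lrp2bp on the opposite strand. Ufsp2 had 713 reads in Het_B12, 814 in Het_PBS and 802 in WT_PBS, and Lrp2bp had 4, 6 and 8 in these groups. The few reads of Ankrd37 are therefore uncertain without a stated strand setting.

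The wider pathway was read from 5 lists of genes. Against WT_PBS, Het_PBS had 0 called genes in each of the 5 lists. The smallest p-values in each list there (edgeR adjusted p of 0.524 to 0.794 for those named) belonged to genes that did not pass. Among partners of HIF these were Vhl, which encodes the von Hippel-Lindau protein, at a log2 fold change of 0.40, and Arnt, the shared partner of the alpha subunits, at -0.80. Among other targets they were the metallothionein gene Mt1 at 0.35 and Adm, which encodes the vasodilator adrenomedullin, at 1.10. Among glycolytic targets they were the enzyme genes Gapdh at 0.58 and Aldoc at 0.23, and with no filter on low counts Gapdh was called (edgeR adjusted p of 0.0123). Among partners of mitophagy they were the autophagy genes Ulk1 at 0.47 and Map1lc3b at 0.25, and in the collagen list P4htm, which encodes a transmembrane prolyl hydroxylase that can act on HIF alpha, at 0.37 and P4hb, the partner of P4ha1 in the collagen hydroxylase, at 0.21. With vitamin B12, single genes of the lists changed in both directions. Over all genes tested, 3.47% were called higher and 3.79% lower in Het_B12 than in Het_PBS. Against WT_PBS the shares were 3.22% higher and 4.11% lower. These shares are the background to each count of called genes below. Other features of the libraries moved with the groups, and their part in these changes was not tested. Gm42418, a gene with ribosomal RNA sequence, took 3.31% to 6.28% of reads in Het_B12, 6.47% to 10.3% in Het_PBS and 10.6% to 14.9% in WT_PBS, with no overlap between groups. Mitochondrially encoded genes took 8.47% ± 0.688 in Het_B12, 9.75% ± 1.33 in Het_PBS and 7.29% ± 1.32 in WT_PBS (SD, n = 5 each). Summed levels of 18 microglial markers were 467 to 574 CPM in Het_B12, 712 to 979 CPM in Het_PBS and 569 to 913 CPM in WT_PBS, and 6 of 18 were called lower in Het_B12 than in Het_PBS. Of 18 partners of HIF and parts of its degradation machinery, 2 were higher and 2 lower in Het_B12 than in Het_PBS, with a list median log2 fold change of 0.03 against 0.01 over all genes. Vhl fell to 29.5 ± 3.76 CPM in Het_B12, against 46.1 ± 5.35 CPM in Het_PBS (log2 fold change -0.64 ± 0.16, edgeR adjusted p of 0.00883). Hsp90aa1, which encodes a chaperone that stabilises HIF-1 alpha, fell to 1153 ± 48.1 CPM in Het_B12, against 1719 ± 143 CPM in Het_PBS (-0.58 ± 0.11, 0.00100). Arnt was higher, at 10.05 ± 2.43 CPM in Het_B12, against 3.98 ± 1.83 CPM in Het_PBS (1.31 ± 0.36, 0.0202), and this call was lost without Het_B12 2 (0.0673), Het_PBS 3 (0.0553) or Het_PBS 5 (0.0526). Crebbp, which encodes a coactivator that HIF recruits, was higher by 0.39 ± 0.12 on the log2 scale with an edgeR adjusted p of 0.0305, a call lost with an offset for transcript length (0.242) and without any 1 of Het_B12 1, 3, 4 and 5 and Het_PBS 3 and 4 (0.0558 to 0.100). With Het_B12 1 and Het_PBS 5 both left out, Arnt and Crebbp were not called (0.100 and 0.101). Against WT_PBS, Het_B12 had 1 called gene of the 18, Hsp90aa1, with a log2 fold change of -0.44 ± 0.11 and an edgeR adjusted p of 0.0125.

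Of 31 other HIF targets that were tested, 2 were higher and 2 lower in Het_B12 than in Het_PBS, with a list median of -0.05. Slc2a1, which encodes the glucose transporter GLUT1 of the blood-brain barrier, stood at 33.4 ± 7.04 CPM in Het_B12, against 20.0 ± 4.88 CPM in Het_PBS (0.74 ± 0.21, edgeR adjusted p of 0.0262) and 17.6 ± 4.36 CPM in WT_PBS (0.91 ± 0.22, 0.00627). The call against Het_PBS was lost after thinning (0.0716) and without any 1 of Het_B12 1, 2 and 3 and Het_PBS 4 and 5 (0.0526 to 0.102), and the call against WT_PBS was lost in 0 of 15 fits without a library. Its rise ran beside the endothelial markers, whose sums and calls in both directions are given with Epas1, and their part in it was not tested. Wsb1, which encodes a ubiquitin ligase subunit, was higher by 0.91 ± 0.24 on the log2 scale with an edgeR adjusted p of 0.0168, a call lost without Het_B12 1 (0.0751), Het_B12 4 (0.0528), Het_PBS 3 (0.0588) or Het_PBS 4 (0.0711). Mt1, which encodes a metallothionein, fell to 778 ± 34.8 CPM in Het_B12, against 1444 ± 334 CPM in Het_PBS (-0.89 ± 0.13, 2.14e-05) and 1135 ± 205 CPM in WT_PBS (-0.55 ± 0.12, 0.00505). Nrn1, which encodes neuritin, had a log2 fold change of -0.51 ± 0.15 against Het_PBS with an edgeR adjusted p of 0.0250, and of -0.50 ± 0.15 against WT_PBS with 0.0274. These calls were lost with a length offset (0.0752 and 0.0509) and without any 1 of 5 libraries: Het_B12 1 and 2 in both, Het_PBS 1, 2 and 4 against Het_PBS (0.0614 to 0.0875), and WT_PBS 1, 2 and 4 against WT_PBS (0.0668 to 0.0985). A gene on its opposite strand had 15.5% as many reads as Nrn1. With Het_B12 1 and Het_PBS 5 both left out, Slc2a1 and Wsb1 were not called against Het_PBS (0.118 and 0.132), nor Nrn1 against WT_PBS (0.0623). Against WT_PBS, Het_B12 had 1 of the 31 higher and 2 lower.

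Of 13 glycolytic targets, 0 were higher and 1 lower in Het_B12 than in Het_PBS, with a list median of 0.06. Aldoc, the aldolase of astrocytes, fell to 1112 ± 154 CPM in Het_B12, against 1630 ± 271 CPM in Het_PBS (-0.55 ± 0.12, edgeR adjusted p of 0.00257), with 0.0548 when Het_B12 1 and Het_PBS 5 were both left out. The summed level of 20 astrocyte markers, which include Aldoc, was 10817 to 12122 CPM in Het_B12, 14994 to 17274 CPM in Het_PBS and 11643 to 16259 CPM in WT_PBS, and 12 of 20 were called lower in Het_B12 than in Het_PBS. Their part in the values of Aldoc, Mt1 and Sparc was not tested. Against WT_PBS 1 of 13 was called in Het_B12, Gapdh, at 150.4 ± 62.5 CPM in Het_B12 and 75.3 ± 38.7 CPM in WT_PBS (1.02 ± 0.23, edgeR adjusted p of 0.00448), which DESeq2 did not call (adjusted p of 0.0537). Gapdh has many near-identical pseudogenes and a gene on its opposite strand with 22.4% as many reads, so its count is uncertain.

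The mitophagy list also holds genes of autophagy in general. Of its 22 genes tested, 1 was higher and 0 lower in Het_B12 than in Het_PBS, with a list median of -0.09. The gene was Calcoco1, an autophagy receptor gene, at 43.0 ± 6.31 CPM in Het_B12, against 25.5 ± 9.25 CPM in Het_PBS (0.73 ± 0.22, edgeR adjusted p of 0.0322) and 22.8 ± 8.79 CPM in WT_PBS (0.94 ± 0.22, 0.00701). The call against Het_PBS was lost without any 1 of Het_B12 2, 4 and 5 and Het_PBS 1, 4 and 5 (0.0587 to 0.0953), without Het_B12 1 and Het_PBS 5 together (0.110) and without WT_PBS 3 and Het_PBS 5 together (0.0552), and that against WT_PBS in 0 of 15 fits without a library. Ulk1, which encodes the kinase that starts autophagy, was also higher against WT_PBS, by 0.70 ± 0.19 with an edgeR adjusted p of 0.0199, which made 2 higher and 0 lower of the 22. That call was lost without any 1 of Het_B12 1 and 2 and WT_PBS 1, 4 and 5 (0.0529 to 0.0811). For Het_B12 against WT_PBS the list median was -0.15, against 0.01 over all genes, and 9 of the 22 genes lay above 0.

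Of 15 genes of collagen hydroxylation and basement membrane, the setting of P4ha1, 1 was higher and 1 lower in Het_B12 than in Het_PBS, with a list median near 0. Sparc, which encodes a collagen-binding matrix protein, fell to 761 ± 94.7 CPM in Het_B12, against 1171 ± 299 CPM in Het_PBS (-0.62 ± 0.13, edgeR adjusted p of 0.00220) and 1117 ± 207.8 CPM in WT_PBS (-0.55 ± 0.13, 0.00677). The summed level of 13 meningeal and fibroblast markers was 1640 to 2339 CPM in Het_B12, 2555 to 3458 CPM in Het_PBS and 1932 to 4460 CPM in WT_PBS, and 5 of the 10 tested were called lower in Het_B12 than in Het_PBS. Their part in the Sparc values was not tested. Col4a2, a collagen IV chain gene, was higher against Het_PBS by 1.28 ± 0.37 on the log2 scale with an edgeR adjusted p of 0.0256, a call lost with limma-voom (0.0529, and 0.0508 with quality weights), without Het_B12 1, Het_B12 3, Het_PBS 2 or Het_PBS 5 (0.0639 to 0.0973), and without Het_B12 1 and Het_PBS 5 together (0.159). Its neighbour Col4a1 on the opposite strand, whose exons overlap those of Col4a2, had 163% as many reads. Whether any of these 3′ reads fall in the overlap was not examined. Against WT_PBS, Het_B12 had 0 of the 15 higher and 1, Sparc, lower, with a list median of 0.19.

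**Figure D4:**
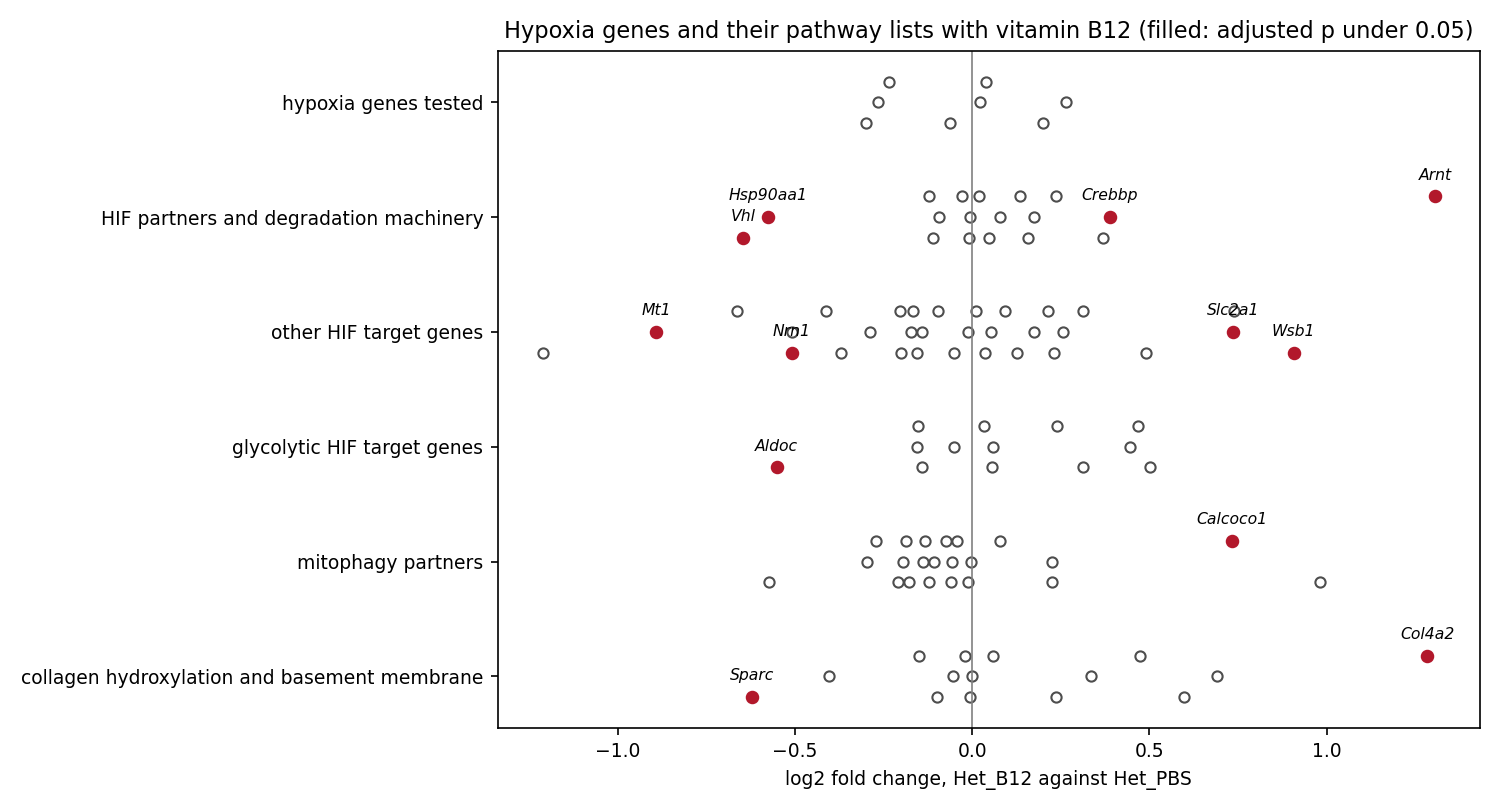
Log2 fold change for Het_B12 against Het_PBS (horizontal axis) of each tested gene (points, spread vertically for legibility) in the hypoxia genes and the 5 pathway lists (rows), filled and named where the edgeR adjusted p was under 0.05. Filled points lie on both sides of 0, from Mt1 at -0.89 to Arnt at 1.31, and none lies in the row of hypoxia genes.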

How the data were processed

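For 15 mouse brain libraries, prepared by QuantSeq 3′ sequencing per the labels' protocols, the authors deposited raw counts of reads in 1 table. STAR, HTSeq, edgeR and the genome build mm10 are named in the submitters' processing notes. The sources used here do not give versions, annotation or strand setting, and the labels name 2 ways of isolating RNA without saying which library had which. Groups came from the sample titles, and whether every library is 1 mouse of its own is not stated, so the p-values cover the spread between libraries, which may be technical. Of 30386 genes, 9918 were at 0 in every library. In R 4.3.3 with edgeR 4.0.16, filterByExpr kept 11718 genes, counts were scaled by TMM factors (0.932 to 1.08), and 1 quasi-likelihood model with 1 mean per group (12 residual degrees of freedom, biological coefficient of variation 0.181) gave each contrast and the F test, adjusted by Benjamini-Hochberg over all genes. Intervals are 95% and cover the spread between libraries. The step was tested on simulated data. Alternatives were DESeq2 1.42.0 and its size factors, limma 3.58.1 (voom, with and without quality weights), other filters, thinning, a length offset, a replicate block, totals without Gm42418 and mitochondrial genes, only the groups compared, and left-out libraries. Gene coordinates came from GENCODE on GRCm38, promoters from RefSeq on GRCm38.p6. The genes and the pathway and marker lists were chosen with earlier results of these data known. From each pathway list, up to 6 called genes with the smallest p, or up to 2 uncalled ones, are named, and so were to be the 3 genes most like each called member, of which there was none.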

Additional observations from a re-analysis of the deposited data

Results flagged for a closer look

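In 2 of 30 groups of libraries examined, 1 library lay far from the other 4, where chance flags about 1 group in 20. Egln3 stood at 12.3 CPM in Het_B12 1, and the gap to the next library was 0.769 of the group's range. P4ha1 stood at 16.8 CPM in WT_PBS 2, with a gap of 0.803 of the range. WT_PBS 2 is also the wild type whose Egln1 level lay among those of the Tbx1+/- libraries.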

How the results depend on the processing

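Of 690 values of the 8 genes tested (24 log2 fold changes under up to 29 alternatives), 653 kept their direction and their side of the threshold, 33 changed sign and 4 passed the threshold (Egln1 and Bnip3l, given above). Reported sizes of those that changed sign were at most 0.26, and the cause was not tested. For Het_PBS against WT_PBS, Bnip3l was -0.054 with limma-voom quality weights, -0.17 without WT_PBS 3 and Het_PBS 5, -0.040 without Het_B12 1 and Het_PBS 5, and -0.082 to 0.14 without single libraries. For Het_B12 against Het_PBS, the length offset gave Hif1a -0.019 and P4ha1 -0.025, and with the replicate block added -0.015 and -0.035. Thinning gave Hif1a -0.0059. Egln1 was 0.0080 without WT_PBS 3 and Het_PBS 5 and 0.010 without Het_B12 1 and Het_PBS 5. Without single libraries Egln1 ran from -0.13 to 0.016, Egln3 from -0.13 to 0.53, Hif1a from -0.049 to 0.13 and P4ha1 from -0.076 to 0.13. For Het_B12 against WT_PBS, Egln2 was -0.0032 with DESeq2 size factors, -0.0034 with DESeq2, -0.0039 without Gm42418 and mitochondrial genes, -0.036 without Het_B12 1 and Het_PBS 5, and -0.063 to 0.13 without single libraries, and Epas1 -0.085 to 0.068.

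Members called for Het_B12 against WT_PBS numbered 1 with a mean count of at least 50, with thinning, and without WT_PBS 3 and Het_PBS 5, and 0 to 1 without single libraries. The F test called 1 (Egln1) with a mean count of at least 50 and with thinning, and 0 to 1 without single libraries. In DESeq2 a likelihood ratio test, used there in place of the F test, also called Egln1. Genes called for Het_PBS against WT_PBS numbered 40 with no filter, 1 without WT_PBS 3 and Het_PBS 5, 2 without Het_B12 1 and Het_PBS 5, and 0 to 14 (without WT_PBS 2) without single libraries. Without Het_B12 1 and Het_PBS 5, 437 genes were called for Het_B12 against Het_PBS and 528 by the F test, and without WT_PBS 3 and Het_PBS 5, 1390 for Het_B12 against WT_PBS. Without single libraries these ran from 549 to 1050, from 556 to 1283 and from 449 to 1268. Replicate numbers did not pair the samples (same-number correlations of -0.09 to 0.11), and with the replicate block 830, 800 and 0 genes were called for Het_B12 against Het_PBS, Het_B12 against WT_PBS and Het_PBS against WT_PBS, with no member among them. With 3 reads worth over 1 CPM, depth limits Hif3a, Ankrd37 and Egln3 most.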
